A study of Caenorhabditis elegans with 10 samples.

Results

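Messenger RNA of worms with reduced DAF-2 function was compared with that of worms with intact daf-2 in a background that lacks math-33. The comparison rests on 4 of the 10 libraries of the series, defined by genotype and temperature. It was chosen with earlier results of these data known. On one side stand daf-2(e1370);math-33(tm3561) worms (the double mutant) at 15 °C and at 25 °C, and on the other math-33(tm3561) worms at 15 °C and at 25 °C. Libraries were paired by temperature, which gives 2 differences, and both strains carry math-33(tm3561). The same difference with math-33 intact, daf-2(e1370) against the wild type N2, is given beside it, and daf-16(mu86);daf-2(e1370) was used only to pick DAF-16-dependent genes. The e1370 allele is temperature-sensitive, so 15 °C is the permissive temperature. Worms either stayed at 15 °C or spent 22 hr at 25 °C from the L3/L4 larval stages, and all libraries are labelled as L4 larvae and preadults. Each library is stranded, poly(A)-selected, paired-end RNA from a pool of about 3000 whole nematodes of a semi-synchronized population, with an RNA integrity number above 8.0. There is 1 library per group, so a difference at 1 temperature has no replicate check, and whole-worm RNA cannot tell fewer cells of a type from less RNA per cell.

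DAF-2 is the worm's insulin/IGF-1 receptor. When its ligands, the insulin-like peptides, activate it, a kinase cascade keeps the FOXO transcription factor DAF-16 out of the nucleus. When receptor function falls, DAF-16 enters the nucleus, switches on stress resistance, metabolic and longevity genes, and can direct larvae into the dauer stage, an arrested larva with a special cuticle. MATH-33 is a deubiquitylating enzyme of the USP7 family that is known to stabilise DAF-16 when insulin signalling is low. The question put to these 4 libraries is which parts of the transcript response to daf-2 reduction are seen in worms without that enzyme.

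Values are FPKM, fragments per kilobase of transcript per M reads, at a depth of 25.2 to 35.2 M reads per library. Differences are on the log2(FPKM + 1) scale, daf-2;math-33 minus math-33, on which the change of a weak gene looks smaller than it is. A fold between 2 libraries carries an exact 95% interval for counting error only. The math-33 transcript stood at 14.4 and 13.9 FPKM in daf-2;math-33 (15 and 25 °C) and at 15.9 and 14.1 FPKM in math-33, against 59.8 to 79.3 FPKM in the other 6 libraries. All 4 libraries therefore carried the low math-33 level of their label. The daf-2 transcript stood at 26.3 and 28 FPKM in daf-2;math-33 and at 24.1 and 28.3 FPKM in math-33. Since e1370 is a point mutation, this level does not check it. The daf-16 entry with the highest level is also detected in daf-16;daf-2 worms (182 and 164 FPKM) and does not check that label either.

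Of 14706 genes tested, 1 rose in daf-2;math-33 over both temperatures (0.0068%) and 0 fell (0.0%), by limma with Benjamini-Hochberg adjustment at 0.05. At an unadjusted p under 0.05, 1521 genes were higher (10.3%) and 1505 lower (10.2%). The fit used all 10 libraries and left 4 residual degrees of freedom. There are no replicate cultures, so its spread is what the genotype and temperature terms leave over. That mixes library noise with genotype effects that differ between the temperatures. A gene whose genotype effects depend on temperature therefore has a wider spread in this test. The counts were 336 higher and 25 lower without the math-33 library at 15 °C, 32 higher and 11 or 10 lower without either daf-2 library, 0 higher without any one N2, daf-16;daf-2 or daf-2;math-33 library, and 1 higher without the math-33 library at 25 °C. Because so few genes passed, most of what follows is a description of differences of at least 1 log2 unit, with no test.

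At 15 °C, daf-2;math-33 exceeded math-33 by 1 log2 unit or more for 389 genes (2.65%), and 500 stood lower by as much (3.4%). At 25 °C the counts were 1288 higher (8.76%) and 546 lower (3.71%). That excess of higher genes depended on scaling. Centring each library on its median gave 982 higher and 870 lower, a share of 53.0% higher in place of 70.2%, and moved the median difference of all genes at 25 °C to -0.09 in place of 0.057. At both temperatures 204 genes were higher (1.39%) and 116 were lower (0.789%), while 3 and 19 genes passed 1 log2 unit in opposite directions at the 2 temperatures. Across genes the differences at 15 and 25 °C, which share no library, had a Pearson r of 0.553 (14706 genes, which are not independent replicates).

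**Figure D1:**
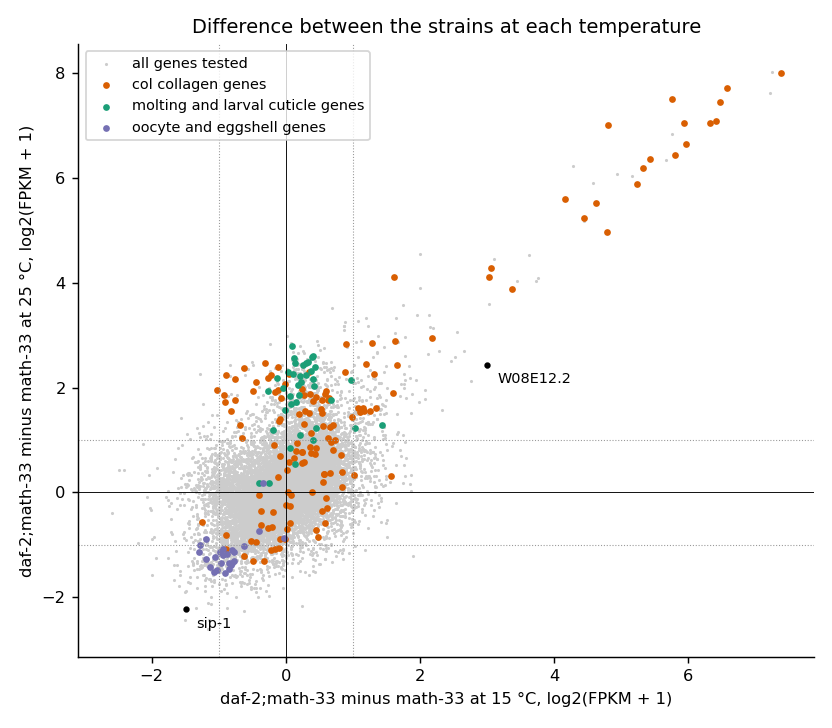
Difference in log2(FPKM + 1) between daf-2;math-33 and math-33 at 15 °C (x axis) and at 25 °C (y axis), 1 point per gene, for 14706 genes, where dotted lines mark 1 log2 unit. Collagens lie far up the diagonal at both temperatures, molting genes stand high on the y axis only, and oocyte and eggshell genes lie low on both axes.

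The gene that rose was W08E12.2 on chromosome IV (3305895 to 3306538, ce10). It stood at 89 FPKM at 15 °C and 82.5 FPKM at 25 °C in daf-2;math-33, and at 10.2 and 14.4 FPKM in math-33. Both daf-2;math-33 values were the highest of the 10 libraries and both math-33 values the lowest, with no overlap. The mean difference was 2.72 ± 0.20 (limma's SE from the fit to 10 libraries, over 2 differences), with an adjusted p of 0.022 by limma. The fold was 8.69 (6.36 to 11.9) at 15 °C and 5.72 (4.5 to 7.36) at 25 °C. In daf-2 it stood at 64.9 and 57.5 FPKM, against 42.5 and 32 FPKM in N2. The difference between these daf-2 effects was 2.0, with an unadjusted p of 0.00015 and an adjusted p of 0.27 by limma. The call was lost without either N2, either daf-16;daf-2 or either daf-2;math-33 library (adjusted p 0.0515 to 0.664), while the mean difference without any 1 of the 10 libraries stayed between 2.39 and 3.05.

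Its neighbours were chosen for mention after their values were seen. The next gene, W08E12.3 (now named idpp-12), stood at 31.2 and 35.8 FPKM in daf-2;math-33 and at 12 and 8.38 FPKM in math-33, with a mean difference of 1.64 and an adjusted p of 0.0967 by limma, so it did not pass. The daf-2 and N2 libraries had similar levels of it, 31.6 and 25.9 FPKM in daf-2 against 30.6 and 22.7 FPKM in N2. W08E12.4 and W08E12.5 have the same coordinates and the same values in the table and cannot be told apart. They were low, at 1.51 and 3.0 FPKM in the double mutant and 0.375 and 1.14 FPKM in math-33.

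**Figure D2:**
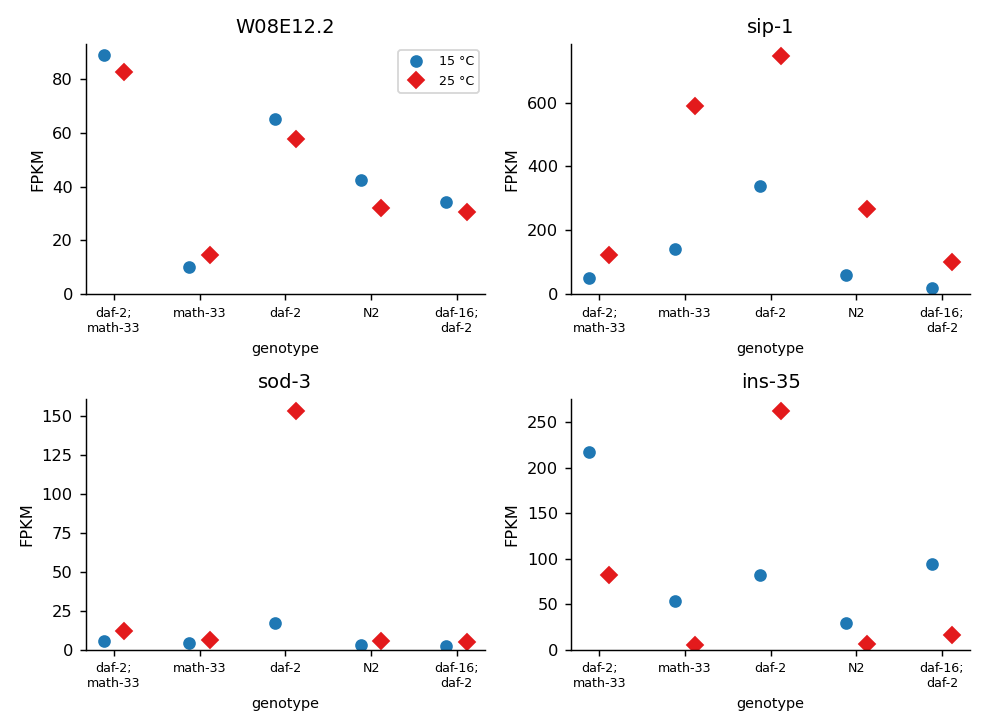
FPKM of W08E12.2, sip-1, sod-3 and ins-35 (y axes, linear) in each of the 10 libraries by genotype (x axes), 1 point per library, circles at 15 °C and diamonds at 25 °C. W08E12.2 is highest in daf-2;math-33 and lowest in math-33. sip-1 is lower in the double mutant than in math-33 but higher in daf-2 than in N2, and the 25 °C level of sod-3 in daf-2 (153 FPKM) stands far above that in the double mutant (11.9 FPKM).

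The highest differences at both temperatures belonged to cuticle genes. Collagens of the col family are the main structural proteins of the worm's cuticle, and different larval stages build theirs from different members. Of 142 col genes tested, 36 were higher by 1 log2 unit or more at 15 °C and 82 at 25 °C, beside 2.65% and 8.76% of all genes. At both temperatures 34 were higher in daf-2;math-33 and 0 lower. Among all genes the shares were 1.39% and 0.789%. Family members resemble each other, and it is not known how the authors divided reads shared among them, so single col values are uncertain. No col gene passed limma's adjusted threshold (lowest adjusted p 0.0967).

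Of these 34 collagens, 19 were under 1 FPKM in both math-33 libraries and also in both N2 libraries. Their summed level was 1048 FPKM at 15 °C and 2210 FPKM at 25 °C in daf-2;math-33, against 2.85 and 4.48 FPKM in math-33. All 19 were above 2 FPKM in daf-2;math-33 at 15 °C (lowest 2.18 FPKM) and above 17 FPKM at 25 °C (lowest 17.3 FPKM). The way the 19 were chosen fixes that the strains do not overlap, so nothing is read from it. The same 19 genes summed to 11.6 and 1793 FPKM in daf-2, against 3.03 and 2.98 FPKM in N2. In daf-2, then, they stood high at 25 °C, where all 19 were at least 1 log2 unit above N2, and low at 15 °C, where 2 of the 19 were. In daf-16;daf-2 they summed to 1416 FPKM at 15 °C and 366 FPKM at 25 °C.

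The highest of them was col-37, at 166 and 350 FPKM in daf-2;math-33 and at 0 and 0.356 FPKM in math-33. That is at least 692-fold higher at 15 °C, taking 3 read pairs as the most that a count of 0 allows, and 983-fold (414 to 2458) at 25 °C. In daf-2 it stood at 0.746 and 239 FPKM, against 0.064 and 0.036 FPKM in N2. The gene ZK863.10 overlaps col-37 and had nearly as high values (148 and 252 FPKM in daf-2;math-33), so its reads and those of col-37 cannot be separated here.

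Several genes known from the dauer larva were among them. col-2, a collagen made at the dauer molt, stood at 99.9 and 197 FPKM in daf-2;math-33 and at 0.176 and 0.461 FPKM in math-33. col-40, another dauer-enriched collagen, stood at 67.4 and 124 FPKM in the double mutant against 0.088 and 0.248 FPKM in math-33. cut-1, which encodes a cuticlin of the dauer cuticle's lateral ridges, stood at 56.4 and 114 FPKM in the double mutant against 0.062 and 0 FPKM in math-33. For each of these genes both daf-2;math-33 libraries were far above both math-33 libraries. The genes were named for those differences, so nothing is read from that gap. In daf-2 they were high at 25 °C only, with 141 FPKM for col-2, 87.9 FPKM for col-40 and 74.3 FPKM for cut-1. In daf-16;daf-2 (15 and 25 °C), col-2 stood at 88.4 and 53.2 FPKM, col-40 at 53.8 and 33.7 FPKM, and cut-1 at 131 and 6.63 FPKM.

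Other collagens followed the same pattern. col-183 stood at 95.1 and 239 FPKM in daf-2;math-33 against 0 and 0.135 FPKM in math-33, and col-36 at 111 and 273 FPKM against 0.258 and 0.556 FPKM. col-185, col-84 and col-51 stood between 66.1 and 235 FPKM in the double mutant and at or under 0.676 FPKM in math-33. col-158 had a measurable level in math-33, 1.54 and 3.56 FPKM, and stood at 141 and 397 FPKM in the double mutant. The collagens are not all a single unit across genotypes: in daf-16;daf-2, col-36 stood at 384 FPKM at 15 °C and 7.31 FPKM at 25 °C, while col-37 stood at 120 and 82.4 FPKM.

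The ground-like genes of the grl family, which encode secreted hedgehog-related proteins, were another such group: 8 of 24 tested stood at least 1 log2 unit higher at both temperatures, beside 1.39% of all genes. grl-23 stood at 151 and 281 FPKM in daf-2;math-33 and at 0 and 0.079 FPKM in math-33, at least 517-fold higher at 15 °C. In daf-2 it stood at 1.29 and 165 FPKM, against 0.077 and 0.222 FPKM in N2. The grl family was counted after its values were seen.

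**Figure D3:**
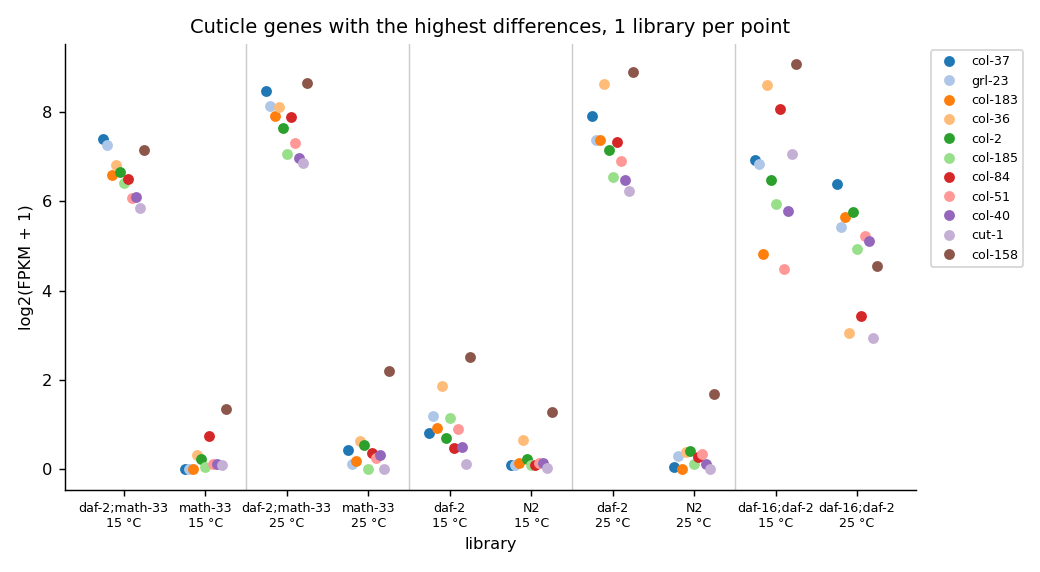
log2(FPKM + 1) of 11 cuticle and ground-like genes (y axis) in the 10 libraries (x axis), 1 point per gene and library, colours marking genes. All 11 genes are high in both daf-2;math-33 libraries and near 0 in both math-33 libraries except col-158. In daf-2 all are high at 25 °C and low at 15 °C, and both N2 libraries are low.

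The response at both temperatures overlapped with that of daf-2 against N2 at 25 °C, a comparison with which it shares no library. Of the 204 genes higher at both temperatures in daf-2;math-33, 125 (61.3%) were also higher by 1 log2 unit in daf-2, against N2, at 25 °C, which is 10.1% of the 1237 genes higher there (8.41% of the genes tested). At 15 °C, where 265 genes stood higher (1.8%) and 238 lower (1.62%) in daf-2, 17 of the 204 (8.33%) were among the higher ones. At both temperatures 128 genes (0.87%) stood higher and 72 (0.49%) lower in daf-2 than in N2. Of the 116 genes lower at both temperatures, 39 (33.6%) were lower in daf-2 than in N2 at 25 °C, 3.32% of the 1174 lower there (7.98%). Across genes, the difference in the math-33 background at 15 °C had an r of 0.521 with daf-2 minus N2 at 25 °C (0.477 without col genes) and of 0.132 with daf-2 minus N2 at 15 °C. These correlations are descriptions over 14706 genes (14564 without col genes), since genes of a library share its depth and stage.

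Known DAF-16 targets made up the next group. Of 36 listed activated targets, 29 were tested, and 0 passed limma's adjusted threshold. Their median difference was 0.26 at 15 °C and 0.61 at 25 °C, beside -0.01 and 0.06 for all genes. At least 1 log2 unit higher stood 3 of them at 15 °C and 5 at 25 °C, beside 2.65% and 8.76% of all genes, and 1 and 2 stood lower, beside 3.4% and 3.71%. In daf-2 against N2 the same 29 had medians of 0.66 and 1.48, with 8 and 21 standing higher and 0 lower. The difference between the daf-2 effects, without and with math-33, was tested directly by limma: 7 of the 29 were lower at an unadjusted p under 0.05 (4.2% of all genes) and 0 were higher (4.94%), the median was -0.76, and none passed adjustment (lowest adjusted p 0.122).

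Classic targets had low daf-2;math-33 levels at 25 °C beside daf-2. sod-3, the mitochondrial superoxide dismutase used as a readout of DAF-16, stood at 5.57 and 11.9 FPKM in daf-2;math-33 and at 4.02 and 5.90 FPKM in math-33. Its fold was 1.38 (0.877 to 2.22) at 15 °C, an interval that includes 1, and 2.02 (1.44 to 2.77) at 25 °C. In daf-2 it stood at 17 and 153 FPKM, against 3.04 and 5.15 FPKM in N2, a fold of 29.7 (22.0 to 40.2) at 25 °C.

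mtl-1, a metallothionein that binds metals, stood at 8.06 and 50.3 FPKM in daf-2;math-33 and at 10.8 and 24 FPKM in math-33. At 15 °C the difference was within counting error, and at 25 °C the fold was 2.09 (1.59 to 2.74). In daf-2 the 25 °C level was 554 FPKM, against 2.88 FPKM in N2. ftn-1, an iron-storing ferritin, stood at 9.50 and 13.8 FPKM in the double mutant and at 11.9 and 8.49 FPKM in math-33, while daf-2 had 221 FPKM and N2 2.98 FPKM at 25 °C. The long noncoding RNA tts-1, which lowers ribosome levels in daf-2 worms, stood at 401 and 941 FPKM in the double mutant and at 297 and 329 FPKM in math-33, while daf-2 had 4248 FPKM and N2 34.4 FPKM at 25 °C. For mtl-1, ftn-1 and tts-1, both math-33 libraries were also above both N2 libraries.

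Like sod-3 and tts-1, other listed targets had higher values in daf-2;math-33 than in math-33 at both temperatures. fat-5, which encodes a palmitoyl-CoA desaturase, stood at 25.4 and 91.2 FPKM in daf-2;math-33 and at 13.5 and 9.72 FPKM in math-33, a fold of 9.38 (7.9 to 11.1) at 25 °C, against 13.4 (12.06 to 14.9) for daf-2 over N2. cyp-35B1, a cytochrome P450 enzyme, stood at 4.07 and 7.61 FPKM in the double mutant and at 1.47 and 1.76 FPKM in math-33, a fold of 4.33 (3.06 to 6.04) at 25 °C, against 15.2 (11.7 to 19.5) for daf-2 over N2. It and scl-1, which encodes a secreted protein and stood at 1.72 and 2.17 FPKM against 0 in both math-33 libraries, were the listed activated targets at least 1 log2 unit higher at both temperatures. lys-7, an antimicrobial lysozyme, stood at 78.5 and 67.4 FPKM in the double mutant and at 31.5 and 38.9 FPKM in math-33, a fold of 1.73 (1.55 to 1.94) at 25 °C, against 20.5 (18.1 to 23.2) for daf-2 over N2. mdl-1, a Mad-like transcription factor, is not on the list and is named here after its values were seen. It stood at 150 and 234 FPKM in the double mutant and at 64.9 and 68.6 FPKM in math-33, with a mean difference of 1.48 and an adjusted p of 0.0967 by limma.

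**Figure D4:**
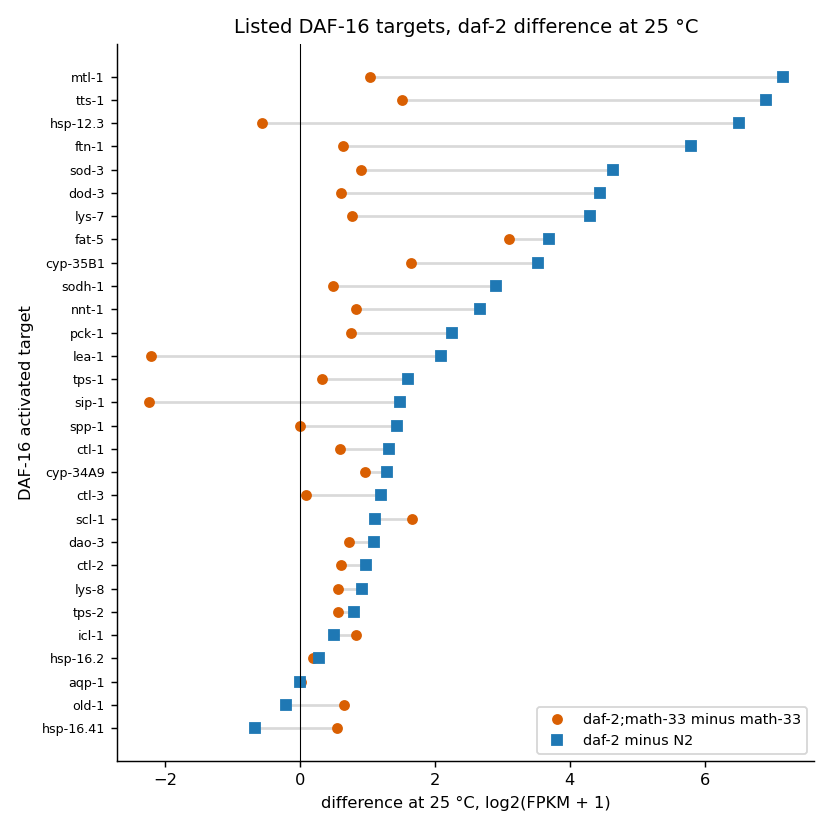
Difference at 25 °C in log2(FPKM + 1) (x axis) for the 29 tested DAF-16 activated targets (y axis), circles for daf-2;math-33 minus math-33 and squares for daf-2 minus N2, 1 library on each side of every difference. The squares of mtl-1, tts-1, hsp-12.3, ftn-1 and sod-3 lie beyond 4, while their circles lie between -0.56 and 1.51. The circles of sip-1 and lea-1 lie below -2.

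Of the 29 targets, 20 were above 0 at both temperatures and 4 below, beside 36.6% and 33.7% of all genes. The targets at least 1 log2 unit lower at 25 °C were sip-1 and lea-1. sip-1, a small heat-shock protein, stood at 50.02 and 124 FPKM in daf-2;math-33 and at 143 and 588 FPKM in math-33, with a mean difference of -1.86 ± 0.29 (limma's SE from the fit to 10 libraries, over 2 differences) and an adjusted p of 0.0967 by limma. In daf-2 it stood at 339 and 747 FPKM, above the 61.6 and 268 FPKM of N2, the opposite direction. lea-1, a protein of the kind that protects cells during desiccation, stood at 23.2 and 36.9 FPKM in the double mutant and at 43.5 and 173 FPKM in math-33, while daf-2 had 179 and 345 FPKM and N2 27.4 and 80.4 FPKM. The test of the difference between the daf-2 effects gave -3.82 for sip-1 (unadjusted p 1.9e-05) and -3.91 for lea-1 (unadjusted p 2.5e-05), with an adjusted p of 0.12 for each by limma, so neither passed. sip-1 is best known from embryos. Of 25 listed oocyte and eggshell genes, 24 were also below 0 at both temperatures, and the part of that in the sip-1 values was not tested.

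Genes that DAF-16 is known to hold down, the repressed list, had 13 tested of 17 listed genes, with a median of 0.42 (15 °C) and of -0.63 (25 °C). The list includes vitellogenins, which are taken up with the germline below. dod-17, an immune-response gene that falls in daf-2 worms, stood at 20.6 and 35.8 FPKM in daf-2;math-33 and at 11.7 and 14.6 FPKM in math-33. In daf-2 it stood at 8.60 and 4.17 FPKM, against 10.3 and 28 FPKM in N2, so at 25 °C it was higher than its control in the math-33 background and lower with math-33 intact. The difference between the daf-2 effects was 2.36 (unadjusted p 0.0066, adjusted p 0.52 by limma).

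Genes were also picked in other libraries, by setting daf-2 against daf-16;daf-2 and keeping genes 1 log2 unit or more apart at both temperatures. The 134 genes higher in daf-2 had medians of 0.28 and 0.33 in daf-2;math-33 minus math-33 at 15 and 25 °C, and 20 of them (14.9%) stood at least 1 log2 unit higher at 25 °C, beside 8.76% of all genes. The 83 genes lower in daf-2 had medians of 0.31 and 0.46, and 23 of them (27.7%) stood higher at 25 °C, against the same 8.76%. Both sets thus had positive medians here. Picked at 25 °C alone, 883 genes higher in daf-2 had medians of 0.33 and 0.49, and 515 genes lower in daf-2 had 0.08 and 0.03.

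Upstream of the receptor, several insulin-like peptides stood higher. Some of these small ligands activate DAF-2 and some oppose it. Of 40 listed, 27 were tested. At both temperatures 6 stood at least 1 log2 unit higher (ins-35, ins-20, ins-5, ins-4, daf-28 and ins-33) and 1 lower (ins-31), beside 1.39% and 0.789% of all genes, and 0 passed limma's adjusted threshold.

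ins-35 stood at 218 and 81.6 FPKM in daf-2;math-33 and at 53.6 and 4.54 FPKM in math-33, a fold of 4.06 (3.46 to 4.76) at 15 °C and 18 (11 to 28) at 25 °C. In daf-2 it stood at 82.1 and 263 FPKM, against 29.1 and 5.63 FPKM in N2. daf-28 and ins-4 encode DAF-2 agonists that promote reproductive growth. daf-28 stood at 56.1 and 35.9 FPKM in the double mutant and at 26.6 and 11.9 FPKM in math-33, and ins-4 at 14.4 and 9.02 FPKM against 3.74 and 1.81 FPKM. In both strains daf-28 and ins-4 were lower at 25 °C than at 15 °C. ins-5 stood at 16.7 and 8.95 FPKM in the double mutant and at 2.51 and 2.35 FPKM in math-33. ins-20 stood at 11.1 and 19.5 FPKM in the double mutant and at 3.37 and 2.01 FPKM in math-33, while daf-2 and N2 had between 0.227 and 1.48 FPKM. ins-31 was close to the detection limit, at 0.272 and 0.445 FPKM in the double mutant and 1.70 and 2.11 FPKM in math-33. ins-7, a peptide gene that DAF-16 is known to repress, stood at 0.226 and 1.04 FPKM in the double mutant and at 0.252 and 4.07 FPKM in math-33.

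Inside the cell, the 19 genes of the insulin signalling pathway all passed the expression filter, and 0 stood 1 log2 unit apart at both temperatures. At 25 °C 1 of the 19 stood at least 1 log2 unit lower, beside 3.71% of all genes. That gene, daf-18, stood at 29.1 and 49.2 FPKM in the double mutant and at 47.9 and 110 FPKM in math-33. daf-16 itself stood at 81.3 and 95 FPKM in the double mutant and at 109 and 93.6 FPKM in math-33, and sgk-1, a kinase of the pathway, at 32.3 and 29.98 FPKM against 27.6 and 21.7 FPKM.

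Among the other pathways that govern dauer entry, 1 of 11 tested genes stood at least 1 log2 unit higher at both temperatures, beside 1.39% of all genes. This was daf-9, the cytochrome P450 that makes dafachronic acid, the steroid hormone of reproductive development. It stood at 9.75 and 6.22 FPKM in daf-2;math-33 and at 2.84 and 2.39 FPKM in math-33, and centring the libraries brought the count to 0. Of 18 dauer-enriched genes, 4 stood higher at both temperatures (col-2, col-40, cut-1 and scl-1, described above) and 1 lower (sip-1).

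Of 46 innate immunity genes tested, 29 were above 0 at both temperatures and 5 below, with medians of 0.48 and 0.53. Among all genes, 36.6% were above 0 at both temperatures and 33.7% below. In all, 6 stood at least 1 log2 unit higher at both temperatures and 0 lower, beside 1.39% and 0.789% of all genes, and 0 passed limma's adjusted threshold. lys-2, a lysozyme, stood at 509 and 568 FPKM in daf-2;math-33 and at 217 and 224 FPKM in math-33, a fold of 2.34 (2.23 to 2.46) and 2.54 (2.43 to 2.65). In daf-2 it had 652 and 1043 FPKM, against 254 and 316 FPKM in N2. lys-3 stood at 5.95 and 8.25 FPKM in the double mutant and at 1.05 and 1.21 FPKM in math-33. irg-1, an infection-response gene, stood at 6.84 and 23.8 FPKM in the double mutant and at 2.13 and 5.15 FPKM in math-33, while in daf-2 at 25 °C it was lower than in N2 (4.0 against 11.2 FPKM). Of the listed C-type lectins, clec-17, clec-61 and clec-67 were at least 1 log2 unit higher at both temperatures. clec-61 stood at 3.31 and 5.43 FPKM in the double mutant against 0.659 and 1.04 FPKM in math-33. The wider clec family went both ways: 5 tested genes stood at least 1 log2 unit higher at both temperatures and 4 lower. For irg-1 the difference between the daf-2 effects was 2.37 (unadjusted p 0.0061, adjusted p 0.52 by limma).

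irg-5, an infection-response gene listed in the table as F35E12.5 and added after its values were seen, stood at 98.5 and 203 FPKM in daf-2;math-33 and at 59.1 and 125 FPKM in math-33. In daf-2 it stood at 29.4 and 17.5 FPKM, against 96.7 and 349 FPKM in N2, so its direction was the opposite one with math-33 intact. The difference between the daf-2 effects was 3.67 (unadjusted p 0.0026, adjusted p 0.5 by limma).

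Among 61 tested cytochrome P450 genes, 3 stood at least 1 log2 unit higher at both temperatures (cyp-35B1, cyp-35B2 and cyp-13A2) and 0 lower, beside 1.39% and 0.789% of all genes. cyp-13A2 stood at 84.2 and 51.9 FPKM in daf-2;math-33 and at 37.1 and 21.2 FPKM in math-33, whereas daf-2 had 29.2 and 12.8 FPKM and N2 46.2 and 22.9 FPKM. Its difference between daf-2 effects was 1.92 (unadjusted p 5.3e-05, adjusted p 0.17 by limma). Of 98 glutathione and glucuronosyl transferase genes tested, 10 (10.2%) were higher and 1 lower at 25 °C, near the 8.76% and 3.71% of all genes, and 0 passed 1 log2 unit at both temperatures in either direction.

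Oocyte and eggshell genes stood lower in daf-2;math-33. Of 25 tested, 24 were below 0 at both temperatures, beside 33.7% of all genes. At least 1 log2 unit lower stood 8 at 15 °C and 20 at 25 °C, beside 3.4% and 3.71% of all genes. At both temperatures 6 were lower by as much (puf-5, rme-2, cpg-1, cpg-2, egg-4 and mex-5), beside 0.789%. By limma's adjusted threshold 0 passed. The list summed to 1818 and 3077 FPKM in the double mutant and to 3755 and 6931 FPKM in math-33. The math-33 sums were the highest of the 10 libraries at each temperature, against 1509 and 2057 FPKM in daf-2 and 1641 and 3718 FPKM in N2. None of its markers was at 0 in the 4 libraries compared.

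rme-2, the yolk receptor of oocytes, stood at 31 and 56.3 FPKM in daf-2;math-33 and at 68.9 and 152 FPKM in math-33. cpg-1, a chondroitin proteoglycan of the eggshell, stood at 429 and 654 FPKM in the double mutant and at 983 and 1588 FPKM in math-33. puf-5, an RNA-binding protein of growing oocytes, stood at 65.5 and 110 FPKM in the double mutant and at 139 and 320 FPKM in math-33. For all of these genes both strains were higher at 25 °C than at 15 °C, and daf-2;math-33 was the lower one at each temperature.

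Yolk genes and major sperm protein genes stood lower as well. Vitellogenins, the yolk proteins made by the adult intestine, were below 0 at both temperatures in 5 of 5 genes tested, and summed to 3468 and 6805 FPKM in daf-2;math-33 against 5976 and 12311 FPKM in math-33. vit-2 stood at 1045 and 2339 FPKM in the double mutant and at 1805 and 3998 FPKM in math-33. In N2, vitellogenins summed to 1791 and 3984 FPKM, so daf-2;math-33 was above N2 at each temperature while below math-33. Of 30 major sperm protein genes, which drive the crawling of sperm, 29 were below 0 at both temperatures and 3 at least 1 log2 unit lower at both. Among all genes the shares were 33.7% and 0.789%. The major sperm protein genes summed to 1177 and 2669 FPKM in the double mutant and to 2111 and 5362 FPKM in math-33. Their near-identical copies share reads, so these are not 30 separate observations. Other sperm genes were less uniform: of 42 tested, 24 were below 0 at both temperatures and 16 were above 0 at 25 °C, with medians of -0.70 and -0.37 and sums of 851 and 1948 FPKM in the double mutant and 1478 and 2991 FPKM in math-33. Of 21 germline genes, 20 were below 0 at both temperatures, none by 1 log2 unit at both.

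Molting and larval cuticle genes were set apart by temperature. Of 38 tested, 33 stood at least 1 log2 unit higher in the double mutant at 25 °C, with a median of 2.05, but 2 at 15 °C (nhr-25 and bli-5), with a median of 0.20. Of all genes 8.76% and 2.65% did so. By limma's adjusted threshold 0 passed. The list summed to 5735 and 4325 FPKM in daf-2;math-33 and to 4929 and 973 FPKM in math-33, and the math-33 library at 25 °C was the lowest of the 10, the next being 4325 FPKM. noah-1, a component of the apical matrix, stood at 276 and 141 FPKM in the double mutant and at 231 and 25.4 FPKM in math-33, against 165 FPKM in N2 at 25 °C. dpy-5, a collagen, stood at 1389 and 1283 FPKM in the double mutant and at 1202 and 274 FPKM in math-33. Both noah-1 and dpy-5 were chosen for mention after their values were seen. Of 9 adult cuticle genes, 6 stood at least 1 log2 unit higher and 1 lower (col-19, -1.09) at 25 °C, with a median of 1.96. At 15 °C they went the other way, with 8 of 9 below 0, 0 higher and 1 lower by 1 log2 unit, and a median of -0.56.

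The library with the lowest molting sum, math-33 at 25 °C, also had the highest oocyte, sperm and vitellogenin sums of the series. Adult cuticle genes summed to 1776 FPKM in it, the lowest at 25 °C but above the 819 FPKM of N2 at 15 °C. Most of that sum was col-19, at 1216 FPKM, its highest level in the series, so the sum does not show the level of the other members. The labels call the populations semi-synchronized, and the part of differences in age within the larval stages was not tested.

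nhr-25, a nuclear receptor needed for molting, stood at 11.6 and 6.49 FPKM in daf-2;math-33 and at 3.67 and 2.07 FPKM in math-33. nas-6, an astacin protease, stood at 22.4 and 22.3 FPKM in the double mutant and at 10.9 and 4.29 FPKM in math-33. Both were higher at each temperature, nas-6 more so at 25 °C.

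**Figure D5:**
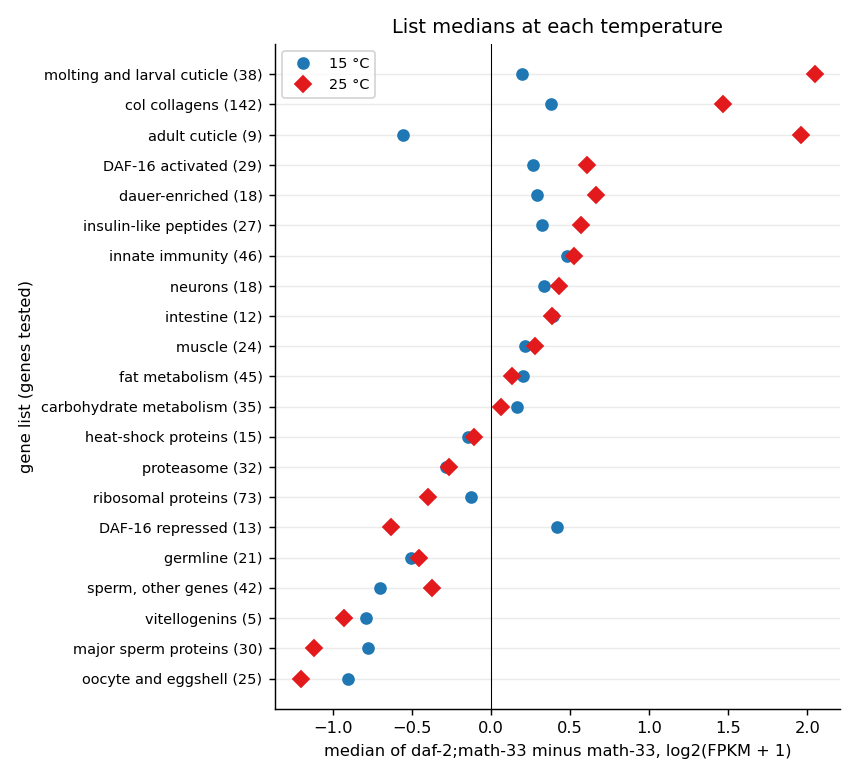
Median difference in log2(FPKM + 1), daf-2;math-33 minus math-33 (x axis), of 21 gene lists (y axis, with the number of genes tested), circles at 15 °C and diamonds at 25 °C. Molting, col and adult cuticle lists stand far higher at 25 °C than at 15 °C (2.05 against 0.20 for molting), while oocyte, sperm, vitellogenin and germline lists lie below 0 at both temperatures.

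Somatic tissue markers had medians above 0 at both temperatures, which at 25 °C but not at 15 °C were below the median of the molting list. At 15 and 25 °C they were 0.39 and 0.39 for intestine (12 genes), 0.34 and 0.43 for neurons (18 genes), and 0.22 and 0.28 for muscle (24 genes). Of 95 neuropeptide genes tested, 6 stood at least 1 log2 unit higher at 15 °C and 14 at 25 °C, with 0 lower at either. Among all genes 2.65% and 8.76% were higher. The neuropeptide genes higher at both were nlp-69 and nlp-76. nlp-76 stood at 8.13 and 8.15 FPKM in daf-2;math-33 and at 2.91 and 2.22 FPKM in math-33, while it was lower in daf-2 than in N2 at 25 °C (1.05 against 3.97 FPKM).

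Metabolic and protein-care genes showed small differences. Of 35 carbohydrate genes, 1 stood at least 1 log2 unit lower at both temperatures and 0 higher, beside 0.789% and 1.39% of all genes. That gene was gpd-1, a glyceraldehyde-3-phosphate dehydrogenase, at 11.9 and 16.55 FPKM in daf-2;math-33 and 27.4 and 54.2 FPKM in math-33. It has a near-identical copy, so its value is uncertain. icl-1, the glyoxylate cycle enzyme that daf-2 worms are known to raise, stood at 399 and 511 FPKM in the double mutant and at 314 and 286 FPKM in math-33, and pck-1, the entry enzyme of gluconeogenesis, at 154 and 141 FPKM against 91.1 and 83.1 FPKM. Median differences of the carbohydrate and fat lists at 25 °C, 0.07 and 0.13, turned to -0.08 and -0.02 with centred libraries.

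Proteasome subunits, which degrade ubiquitylated proteins, were below 0 at both temperatures in 28 of 32 genes, beside 33.7% of all genes, with medians of -0.29 and -0.27 and none 1 log2 unit apart. Of 20 deubiquitylating enzymes, 16 were below 0 at both. Ribosomal proteins had medians of -0.13 and -0.40 (73 genes), with 8 at least 1 log2 unit lower at 25 °C, beside 3.71% of all genes. Of 15 heat-shock genes tested, 1 stood at least 1 log2 unit lower at both temperatures, sip-1, and 0 higher, beside 0.789% and 1.39% of all genes. hsp-12.3, a small heat-shock gene, was chosen for mention after its values were seen. It stood at 0.761 and 4.0 FPKM in daf-2;math-33 and at 1.94 and 6.36 FPKM in math-33, while daf-2 at 25 °C had 180 FPKM and N2 0.993 FPKM. Among 16 autophagy genes, sqst-1, the cargo receptor, had the highest mean difference over the 2 temperatures. It stood at 85.6 and 107 FPKM in the double mutant and at 58.0 and 43.1 FPKM in math-33.

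The genes with the lowest differences, daf-2;math-33 minus math-33, at both temperatures are mostly uncharacterised. H29C22.1 stood at 6.46 and 22.2 FPKM in daf-2;math-33 and at 20.1 and 86.2 FPKM in math-33, against 2.09 and 10.5 FPKM in daf-2. T12G3.6 stood at 11 and 27.8 FPKM in the double mutant and at 32.7 and 105 FPKM in math-33, with an adjusted p of 0.0967 by limma. The neighbours W02D9.6 and W02D9.7 stood at 2.33 to 13.3 FPKM in the double mutant and at 6.43 to 65.1 FPKM in math-33. In H29C22.1, T12G3.6 and W02D9.7 the math-33 library at 25 °C was the highest of the 10. ilys-5, an invertebrate-type lysozyme, was the most abundant of this group, at 505 and 250 FPKM in the double mutant and 1616 and 794 FPKM in math-33, and it was also lower in daf-2 than in N2 at 25 °C (169 against 796 FPKM).

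Among the genes lowest at 15 °C, T22B7.7 and K09H9.9 went the other way at 25 °C. T22B7.7 stood at 9.28 FPKM in daf-2;math-33 against 53.8 FPKM in math-33 at 15 °C, and at 20.9 against 15.4 FPKM at 25 °C. K09H9.9 stood at 0.222 against 4.34 FPKM at 15 °C and at 4.31 against 1.80 FPKM at 25 °C. acdh-2, an acyl-CoA dehydrogenase and the lowest of the fat metabolism list, stood at 13.5 and 0.221 FPKM in the double mutant and at 27.3 and 3.51 FPKM in math-33. It was 15.9-fold lower (4.09 to 136) at 25 °C in the double mutant, and 17.9-fold lower (3.5 to 122) in daf-2 than in N2.

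The test of the difference between daf-2 effects, without and with math-33, called 0 of 14706 genes (0.0%) by limma with Benjamini-Hochberg adjustment. At an unadjusted p under 0.05, the effect was higher without math-33 for 726 genes (4.94%) and lower for 618 (4.2%). Of the innate immunity genes 5 of 46 were in the first group and 0 in the second, and of the col genes 18 and 12 of 142. Without the math-33 library at 15 °C the adjusted counts were 136 and 2, and without the daf-2 library at 15 or at 25 °C they were 4 and 9, or 8 and 1. In the fit to all libraries, for no single gene was a difference between the daf-2 effects shown by this test, which also does not show that the effects were alike.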

How the data were processed

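Polyadenylated RNA of whole worms was measured in 10 libraries. The authors deposited 1 table of FPKM for 47467 transcripts. The submitters' processing notes name STAR, HOMER, edgeR and build ce10, with no role or version. How reads of overlapping or similar genes were counted, and whether strand was used, is not stated in the sources used here.

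Transcripts with no gene name (1104) were left out; they held 1.72 to 1.97% of summed FPKM. The transcript with the highest mean FPKM stood for a gene. A gene was kept if that transcript had at least 200 bases and reached 1 FPKM in 2 or more libraries. Names came from RefSeq tables (WBcel235). limma 3.58.1 in R 4.3.3 was fitted to log2(FPKM + 1) with genotype and temperature terms and a mean-variance trend, and its adjusted p is Benjamini-Hochberg over all 14706 genes. The fit was tested on simulated data for this contrast: over 14706 genes, 24 of 50 genes changed by 1 log2 unit were recovered, 41 of 50 by 2, 47 of 50 by 3 and 49 of 50 by 4, with 8 false calls. The changed genes were drawn only from those with a mean above 5 FPKM. Each was shifted equally at both temperatures, with the other genotypes alike and independent noise. Recovery of weaker genes or of temperature-dependent changes was not tested.

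Depth was recovered from the steps between low FPKM values of transcripts of 300 to 1500 bases, of which 100.0% came out as whole reads within a tolerance of 0.01%. Exact 95% intervals of folds used read pairs and cover counting error only, as does the floor of 3 pairs. No count model was fitted, because the table holds FPKM.

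Named genes were the called gene, the 12 highest and 12 lowest at both temperatures, the 6 highest and lowest at each temperature, members of each list that stood highest, lowest or at least 1 log2 unit apart at both temperatures, and a set of known DAF-16 targets; genes added later are named as such. The genes, the 31 lists and the comparison were chosen with earlier results of these data known. Replicates from separate cultures are not part of the design. The p-values therefore measure only the spread left among these 10 libraries after the genotype and temperature terms. Alternatives were another pseudocount, filter, scaling, row length and model, and each library left out.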

Additional observations from a re-analysis of the deposited data

Results flagged for a closer look

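In 3 genes, daf-2;math-33 stood at least 1 log2 unit below math-33 at both temperatures while daf-2 stood at least 1 log2 unit above N2 at both, with 1 library on each side of each difference. sip-1, described above, had a mean difference of -1.86. Y110A2AL.3 stood at 0.95 and 3.12 FPKM in daf-2;math-33 and at 4.36 and 12.5 FPKM in math-33 (mean difference -1.59), against 1.43 and 11.2 FPKM in daf-2 and 0 and 2.57 FPKM in N2. F46A9.1 stood at 3.33 and 7.23 FPKM in daf-2;math-33 and at 10.2 and 16.498 FPKM in math-33 (mean difference -1.23), against 7.90 and 25.1 FPKM in daf-2 and 2.17 and 8.24 FPKM in N2. Y110A2AL.3 and F46A9.1 were chosen after their values were seen. The test of the difference between the daf-2 effects gave unadjusted p-values of 0.00023 for Y110A2AL.3 and 0.00043 for F46A9.1 by limma, and none of the 3 genes passed Benjamini-Hochberg adjustment (adjusted p 0.34 for Y110A2AL.3, 0.37 for F46A9.1 and 0.12 for sip-1).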

How the results depend on the processing

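The 1 gene called higher became 0 with no filter on low values and 0 with median-centred libraries (W08E12.2, mean difference 2.65 and adjusted p 0.0536 by limma when centred), and 26 when the 4 libraries were fitted alone, where W08E12.2 had an adjusted p of 0.0514. Leaving out 1 library at a time gave 0 to 336 genes higher and 0 to 25 lower. For the difference between daf-2 effects it gave 0 to 136 genes higher and 0 to 9 lower. Each of these fits left a genotype with 1 library, which adds nothing to the fitted spread, so nothing is read from these counts. The cause of their range was not tested. With a pseudocount of 0.1 the counts past 1 log2 unit were 920 higher and 1071 lower at 15 °C and 1992 higher and 838 lower at 25 °C. A filter of 5 FPKM, which tests fewer genes, gave 252 higher at 15 °C, and centring gave 870 lower at 25 °C. Picking DAF-16-dependent genes at 25 °C alone gave medians of 0.326 and 0.494 for genes higher in daf-2 and of 0.08 and 0.034 for genes lower in daf-2 (15 and 25 °C).

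Of 228 mean differences of 76 genes named in the text under another pseudocount or scaling, 226 kept their direction and call; the value of daf-2 itself, near 0, turned to -0.02 with centring. In place of the 25 °C pair, the 15 °C pair, an alternative chosen after seeing the data, had 2 molting genes higher, 8 oocyte and eggshell genes lower and 36 col genes higher. The labels carry no replicate numbers to pair by, so libraries were paired by temperature, a term of the fit; leaving that term out gave 1 gene higher and 0 lower. Genes under about 0.2 FPKM rest on 3 read pairs or fewer for a transcript of 1000 bases.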
